A study of Mus musculus with 9 samples.

Results

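Kinesins are the motor proteins that walk along microtubules or take them apart, and the set described here holds every gene whose symbol begins with Kif followed by a digit or the letter c. This rule uses names only and found 37 of the 15552 protein-coding genes in the count table, of which 36 encode motors or motor-like proteins and 1, Kif1bp, encodes a partner of the kinesin-3 motors. RNA was measured in MyC-CaP cells, a single cell line derived from a prostate tumor of a mouse carrying a MYC transgene. All cells were starved for 6 to 12 h in medium without serum and without calcium, then received recombinant NRG1 (neuregulin 1, which binds the receptor HER3) at 15 ng/mL, and were collected after 0, 12 or 24 h in 3 biological replicates each, giving 9 libraries. The labels give NRG1 as the treatment of the 0 h libraries as well, so that 0 h stands for no time with the ligand. Libraries of starved cells kept without NRG1 for 12 or 24 h were not analysed here, so time with NRG1 and time in the starvation medium cannot be told apart. The labels call the replicates biological, and the methods describe wells plated in triplicate. Whether the wells were plated on separate occasions is not stated, and p-values measure the spread between such wells.

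Mitotic kinesins build and order the spindle, move chromosomes, or act at the central spindle and midbody when daughter cells separate, and many of their genes are known to be expressed in a cell-cycle-dependent manner, highest in G2 and M phase. Transport kinesins carry vesicles, organelles and RNA in cells at any stage of the cycle, and several of them are known mainly from neurons. A few kinesins act in the primary cilium, a sensory structure that is taken down before division. The genes were sorted by these roles into 13 mitotic, 15 transport, 4 cilium and 4 other motors, with Kif1bp kept apart. A further 8 kinesin names that had been sorted in the same way, Kif2b, Kif6, Kif12, Kif19a, Kif19b, Kif25, Kif26a and Kif28, had no row in the table and were not analysed here.

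Every kinesin sorted as mitotic was higher after NRG1, and no transport kinesin passed in that direction. The classes were set with earlier results of these data known. Kif2a, which also acts at spindle poles, was sorted under other motors and passed in no comparison. All 13 mitotic genes had an adjusted p of at most 0.05 in the higher direction at 12 h against 0 h, by edgeR's quasi-likelihood test with Benjamini-Hochberg adjustment over the 11373 genes tested, where 13.6% of all tested genes did so. At 24 h against 0 h all 13 were again higher, beside 9.67% of all tested genes. Their median log2 fold change was 0.47 (range 0.15 to 0.73) at 12 h and 0.58 (range 0.24 to 0.89) at 24 h, whereas the median over all tested genes was -0.0028 and -0.0065. Of the 13 transport genes with enough counts to test, none was higher and 5 were lower at 12 h, where 11.9% of all tested genes were lower, and none passed at 24 h, where 7.76% of all tested genes were lower. At an unadjusted p under 0.05, 0 transport genes were higher and 5 lower at 12 h, and 0 were higher and 2 lower at 24 h, and DESeq2 gave 1 (Kif13b) lower at 24 h after adjustment. For 5 transport genes all 12 h libraries lay below 0 h and for 3 all 24 h libraries did, beside 18.5% and 17.9% of all tested genes. The transport medians were -0.013 at 12 h and -0.0057 at 24 h. Both comparisons share the same 0 h libraries and are therefore not independent of each other. In RNA from whole cultures, more cells in mitosis and more RNA per mitotic cell cannot be told apart.

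**Figure D1:**
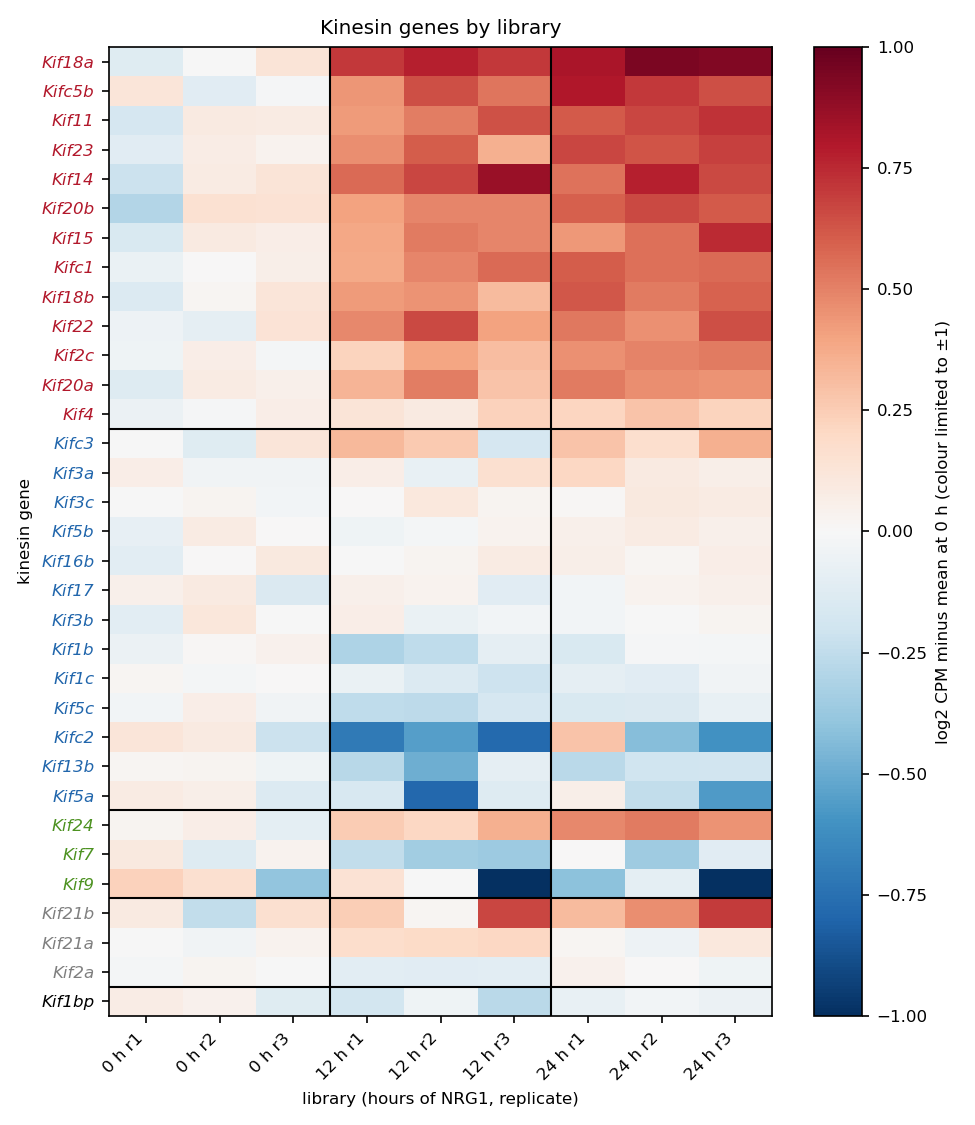
Each column is a library and each row a tested kinesin gene. Color gives log2 CPM (counts scaled to library size) minus the mean of the 3 libraries at 0 h, limited to ±1, and gene names are colored by class (red mitotic, blue transport, green cilium, gray other, black Kif1bp). The 13 mitotic rows at the top are red in all 6 libraries at 12 and 24 h, and most transport rows below are pale or blue at 12 h, with the top one, Kifc3, red in all but 1 of the later libraries.

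In summed CPM (counts scaled to library size with TMM factors) the mitotic class measured 298, 333 and 339 CPM at 0 h, 419, 452 and 437 CPM at 12 h, and 468, 473 and 483 CPM at 24 h. No library at 12 or 24 h overlapped the 0 h libraries, and the same held for each of the 13 genes, where 19.9% of all tested genes lay wholly above 0 h at 12 h and 17.6% at 24 h. The group means were 323 ± 22.2, 436 ± 16.6 and 475 ± 7.71 CPM (SD, n = 3). The transport class summed to 701 ± 14.4, 658 ± 10.5 and 691 ± 7.94 CPM, so that it took the larger share of kinesin counts at each time. Its largest members were Kif1c and Kif5b, with means of 198 and 176 CPM over all libraries. These sums are not scaled by exon length, whose median was 7276 bases for transport and 5514 for mitotic genes, so they do not compare amounts of RNA between the classes. The ratio of mitotic to transport CPM went from 0.461 ± 0.0243 at the start to 0.662 ± 0.0322 at 12 h and 0.687 ± 0.00333 at 24 h. Most of the difference in these means was therefore present by 12 h. Replicate 1 at 0 h was the lowest of the 0 h libraries for 11 of the 13 mitotic genes. Without that library, 12 of the 13 still passed at 12 h (median 0.42 on the log2 scale), and 13 of 13 at 24 h (median 0.52).

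**Figure D2:**
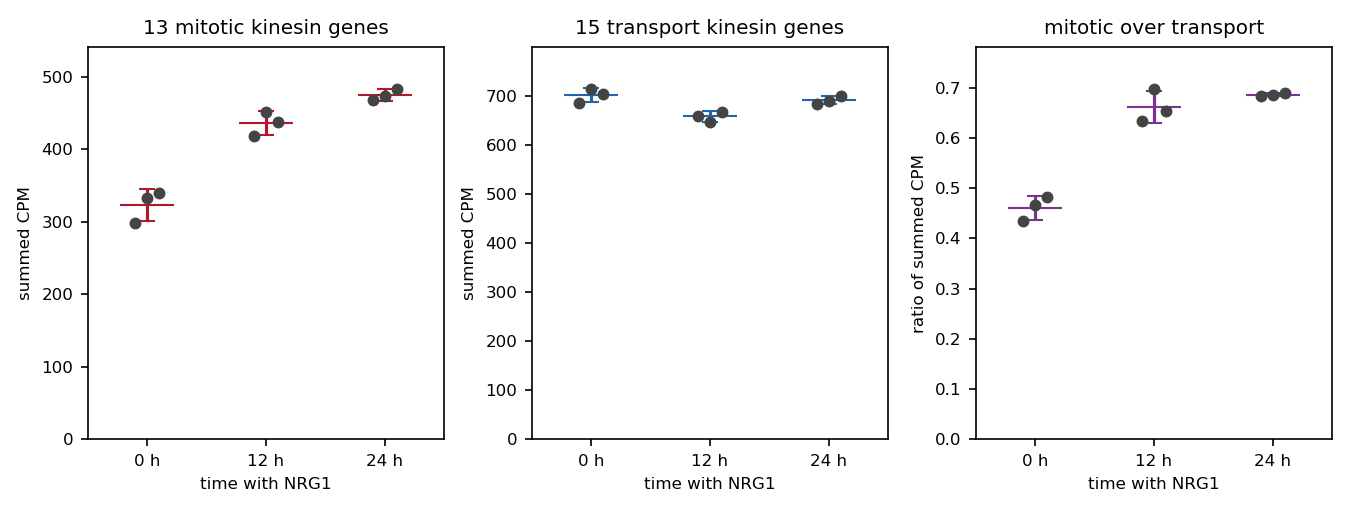
Points are libraries, horizontal lines group means and error bars SD (n = 3). The y axes show summed CPM of the 13 mitotic genes, of the 15 transport genes, and the ratio of these sums. Mitotic CPM and the ratio were higher in every library at 12 and 24 h than in any library at 0 h.

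The proximal promoters of the mitotic genes share sequence features that the naming rule did not use. Promoters of cell cycle genes of G2 and M phase are known for the cell cycle homology region (CHR, written TTTGAA or TTCGAA) near the transcript start, often with CCAAT boxes upstream. RefSeq promoter windows of 300 bases (250 before and 50 from the annotated start on, GRCm38.p6) were matched by symbol for 29 of the 37 genes, and all motifs were searched on both strands. A CHR was present in 11 of 12 mitotic genes with a window (91.7%), in 1 of 10 transport genes, and in 21.7% of the 27025 genes in the RefSeq table (19.2% of its 32851 windows). The windows of Kif14, Kif2c and Kif4, and the Kif1a window with the transport match, lay wholly within the annotated span of the gene. In Kif14 and Kif2c the CHR nearest the start began at -228 and -103. Both a CHR and a CCAAT box were found in 8 of 12 mitotic genes, in 0 of 10 transport genes and in 8.61% of all genes. A CCAAT box was found in 66.7% of the mitotic and 30% of the transport genes with a window, beside 41.1% of all genes. The E2F core, searched as TTCCCGC and as its variants with the letters TTCGCGC, with the letters TTGCCGC and with the letters TTGGCGC, was found in 2 of the 12 mitotic genes (16.7%), Kif15 and Kif18a, in 1 of 10 transport genes, Kif16b, and in 10.9% of all genes. These matches are descriptions of letters and not measured binding sites, and genes are not independent of each other where they are paralogs.

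The sequences are stretches of 130 bases on the strand of the gene, from 100 bases before the annotated start to 30 bases from it on, with any CHR, CCAAT box or E2F core in capitals. The first set holds mitotic genes in which a CHR lies close to the start: Kif11 (chr19:37376282-37376411, + strand), Kif23 (chr9:61946770-61946899, - strand), Kif20b (chr19:34922258-34922387, + strand), Kif22 (chr7:127042391-127042520, - strand), Kif18b (chr11:102925095-102925224, - strand), Kifc1 (chr17:33890604-33890733, - strand) and Kif4 (chrX:100625965-100626094, + strand). In 9 of the 12 mitotic genes, among them the paralogs Kifc1 and Kifc5b, a CHR began within 30 bases of the start. The single transport match, in Kif1a, began at -44. This narrower count was not made over all genes, so how unusual it is cannot be told.
Kif11: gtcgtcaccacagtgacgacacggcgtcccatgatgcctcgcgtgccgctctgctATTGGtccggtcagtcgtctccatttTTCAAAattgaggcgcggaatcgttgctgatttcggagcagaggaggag
Kif23: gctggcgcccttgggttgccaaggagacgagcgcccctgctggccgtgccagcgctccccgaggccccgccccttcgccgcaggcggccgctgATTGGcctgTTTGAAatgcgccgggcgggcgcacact
Kif20b: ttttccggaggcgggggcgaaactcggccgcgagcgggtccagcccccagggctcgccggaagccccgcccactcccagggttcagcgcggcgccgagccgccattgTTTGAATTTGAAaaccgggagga
Kif22: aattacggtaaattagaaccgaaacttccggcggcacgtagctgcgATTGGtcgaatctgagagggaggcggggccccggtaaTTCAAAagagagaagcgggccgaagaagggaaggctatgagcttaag
Kif18b: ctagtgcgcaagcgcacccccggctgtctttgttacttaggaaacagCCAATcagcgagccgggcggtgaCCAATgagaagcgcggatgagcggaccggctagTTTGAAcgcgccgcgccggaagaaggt
Kifc1: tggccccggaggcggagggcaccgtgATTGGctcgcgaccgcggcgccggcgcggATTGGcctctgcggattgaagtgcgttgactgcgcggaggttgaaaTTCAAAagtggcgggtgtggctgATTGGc
Kif4: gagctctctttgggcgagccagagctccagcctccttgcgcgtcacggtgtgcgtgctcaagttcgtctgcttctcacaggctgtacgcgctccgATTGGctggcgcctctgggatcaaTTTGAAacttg
The next is Kif18a (chr2:109280638-109280767, + strand), shown because it had the highest log2 fold change of all tested kinesins at both times and yet no CHR and no CCAAT box in its window, with an E2F core on the opposite strand in capitals.
Kif18a: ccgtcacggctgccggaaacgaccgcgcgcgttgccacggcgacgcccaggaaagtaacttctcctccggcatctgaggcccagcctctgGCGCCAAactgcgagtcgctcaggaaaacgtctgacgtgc
For contrast, the transport genes Kif1c (chr11:70700448-70700577, + strand) and Kif5c (chr2:49619186-49619315, + strand) had none of these letters in the stretch.
Kif1c: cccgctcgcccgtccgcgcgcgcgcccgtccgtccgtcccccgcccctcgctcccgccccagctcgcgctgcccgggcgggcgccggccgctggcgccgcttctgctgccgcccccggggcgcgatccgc
Kif5c: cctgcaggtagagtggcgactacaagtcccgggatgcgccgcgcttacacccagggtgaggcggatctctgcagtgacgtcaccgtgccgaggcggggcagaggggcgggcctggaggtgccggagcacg

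**Figure D3:**
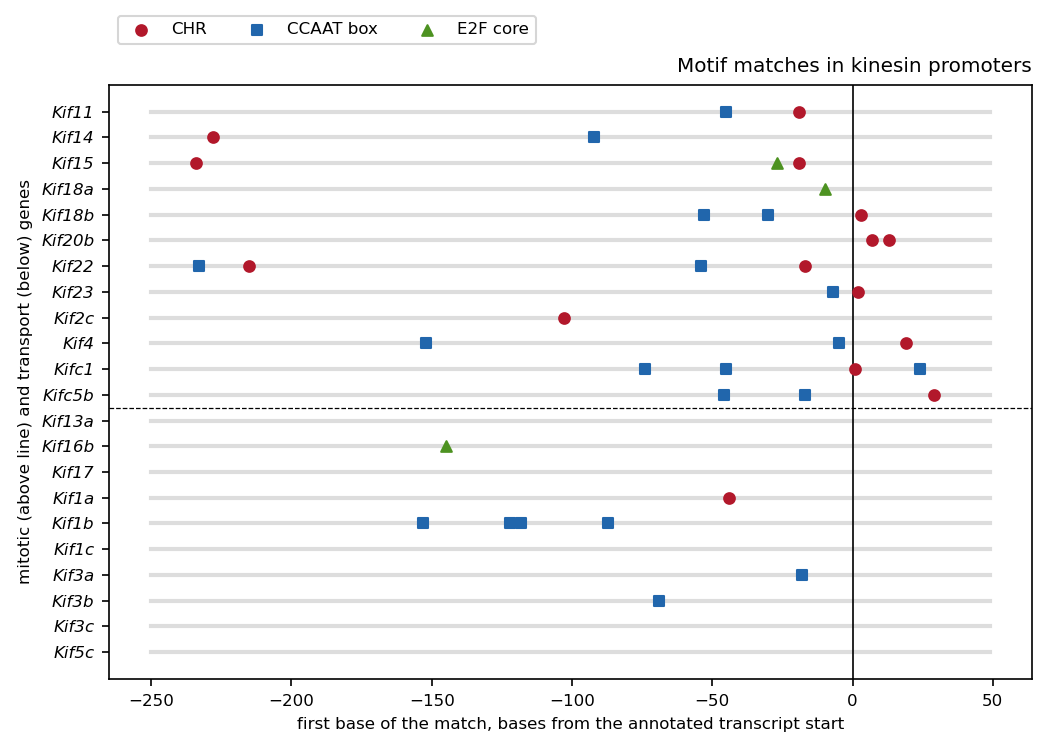
Gray bars are the 300-base promoter windows of mitotic genes (above the dashed line) and transport genes (below it), and the x axis gives the first base of each match from the annotated transcript start. Red circles mark CHR matches, blue squares CCAAT boxes and green triangles E2F cores. CHR matches occur in 11 of the 12 mitotic windows and in 1 of the 10 transport genes, Kif1a.

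Kif11, the kinesin-5 that slides antiparallel microtubules apart to separate the spindle poles (chr19:37376403-37421859, + strand), measured 33.7, 40.3 and 40.2 CPM at 0 h, 50.9, 54.2 and 59.02 CPM at 12 h and 58.03, 60.4 and 62.6 CPM at 24 h. All 6 later libraries were above the 0 h libraries, and the log2 fold change was 0.52 ± 0.067 (SE, adjusted p = 3.19e-05) at 12 h and 0.66 ± 0.067 (SE, adjusted p = 3.27e-06) at 24 h. The latter corresponds to 1.58-fold and passed the study's threshold of a 1.5-fold change as well. Kif15, a kinesin-12 that can stand in for Kif11 at the spindle, ranged from 18.7 to 34.9 CPM and rose by 0.46 and 0.58 on the log2 scale (adjusted p = 0.000509 and 6.87e-05). Kifc5b, a kinesin-14 closely related to the minus-end spindle motor Kifc1 (chr17:26917091-26932583, + strand), measured 9.72, 8.29 and 8.89 CPM at 0 h, 12.2, 13.99 and 13.02 CPM at 12 h and 15.6, 14.6 and 14.01 CPM at 24 h. It rose by 0.55 ± 0.088 (SE, adjusted p = 0.000239) at 12 h and 0.72 ± 0.086 (SE, adjusted p = 1.77e-05) at 24 h, without overlap with 0 h. Kifc1 itself rose by 0.48 and 0.57 (adjusted p = 2.51e-05 and 4.75e-06). Because the sequences of Kifc1 and Kifc5b are so alike, how the reads were divided between them is uncertain.

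Among the motors that act on chromosomes and microtubule ends, Kif18a, the kinesin-8 that damps chromosome movements at metaphase (chr2:109280738-109341747, + strand), had the highest values of all tested kinesins in both comparisons with 0 h. It measured 8.41, 9.10 and 9.99 CPM at 0 h, 14.9, 15.8 and 14.9 CPM at 12 h and 16.1, 17.6 and 17.4 CPM at 24 h, with all 12 h and 24 h libraries above those at 0 h and all 24 h libraries above those at 12 h. The log2 fold change was 0.73 ± 0.08 (SE, adjusted p = 8.08e-06) at 12 h and 0.89 ± 0.079 (SE, adjusted p = 1.03e-06) at 24 h, which correspond to 1.65-fold and 1.86-fold. Its relative Kif18b, a motor of astral microtubule ends, rose by 0.39 and 0.57 (adjusted p = 0.000371 and 1.27e-05). Kif22, the kinesin-10 bound to chromosome arms, rose by 0.52 and 0.54 (adjusted p = 8.73e-05 and 6.67e-05). Kif2c, the kinesin-13 that takes microtubules apart at centromeres (chr4:117159639-117182639, - strand), measured 34.6, 37.4 and 35.3 CPM at 0 h, 41.8, 47.1 and 44.3 CPM at 12 h and 49.3, 50.5 and 51.4 CPM at 24 h. Its 3 time points did not overlap, and it rose by 0.31 ± 0.052 (SE, adjusted p = 0.000386) at 12 h and 0.49 ± 0.052 (SE, adjusted p = 5.2e-06) at 24 h. Kif2c was the only kinesin to pass between 12 and 24 h, with a log2 fold change of 0.18 ± 0.051 (SE, adjusted p = 0.0487), and that pass was lost in a fit of the 6 libraries alone, whenever a 24 h library was left out, and when the third library at 0 h, or the first or the third at 12 h, was omitted. Kif4, the chromosome-bound kinesin-4 (chrX:100625737-100727214, + strand), measured 39.8, 41.1 and 43.2 CPM at 0 h, 45.3, 44.1 and 48.6 CPM at 12 h and 48.1, 50.3 and 48.2 CPM at 24 h. It had the lowest log2 fold changes of the mitotic class, 0.15 ± 0.05 (SE, adjusted p = 0.0362) at 12 h and 0.24 ± 0.05 (SE, adjusted p = 0.00305) at 24 h. The Kif4 pass at 12 h was lost with scaling by total counts, in the 6-library fit and without any of 4 of the 6 libraries (replicates 1 and 2 at 0 h and 1 and 3 at 12 h), and 15.1% of its exonic bases overlap Pdzd11 on the other strand.

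The log2 ratio of Kif18a to Kif4 was -2.18 ± 0.0645 at the start (SD, n = 3), -1.59 ± 0.108 at 12 h and -1.52 ± 0.0557 at 24 h. These genes had the highest and the lowest log2 fold change of the mitotic class and were set side by side for that reason, so the ratio is given as a description with no test.

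The cytokinesis motors showed the same direction. Kif14, a kinesin-3 of the midbody (chr1:136466343-136531511, + strand), measured 9.16, 11.3 and 11.6 CPM at 0 h, 15.8, 16.9 and 19.4 CPM at 12 h and 15.5, 18.2 and 16.8 CPM at 24 h. All later libraries were above those at 0 h, and the log2 fold change reached 0.69 ± 0.10 (SE, adjusted p = 9.05e-05) at 12 h and 0.65 ± 0.10 (SE, adjusted p = 0.000192) at 24 h. Between 12 and 24 h the groups overlapped and the change was -0.037 (adjusted p = 0.874). Kif23, the motor subunit of centralspindlin (chr9:61915905-61946774, - strand), measured 24.3, 27.6 and 26.9 CPM at 0 h, 36.3, 40.04 and 33.5 CPM at 12 h and 41.7, 40.6 and 42.3 CPM at 24 h. It rose by 0.47 ± 0.065 (SE, adjusted p = 5.72e-05) and by 0.66 ± 0.065 (SE, adjusted p = 2.7e-06), and each 24 h library was above each 12 h library. Kif20b, a kinesin-6 of the midbody (chr19:34922361-34975745, + strand), measured 23.5, 31.99 and 31.8 CPM at 0 h, 38.04, 40.5 and 40.5 CPM at 12 h and 43.5, 45.5 and 44.1 CPM at 24 h. Replicate 1 at 0 h was the low library here, and the log2 fold change was 0.44 ± 0.083 (SE, adjusted p = 0.000976) at 12 h and 0.60 ± 0.082 (SE, adjusted p = 6.89e-05) at 24 h. Kif20a, the kinesin-6 of the central spindle, measured 28.9, 33.5 and 32.8 CPM at 0 h, 40.1, 45.2 and 38.6 CPM at 12 h and 45.4, 43.7 and 43.1 CPM at 24 h. It rose by 0.38 ± 0.065 (SE, adjusted p = 0.000439) and 0.47 ± 0.064 (SE, adjusted p = 6.91e-05) without overlap with 0 h, and 29.3% of its exonic bases overlap Cdc23 on the other strand.

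With the study's rule of an adjusted p of at most 0.05 and a fold change of at least 1.5, 2 kinesins were higher at 12 h (Kif14 and Kif18a), where 1.34% of all tested genes were. At 24 h 6 were higher (Kif11, Kif14, Kif18a, Kif20b, Kif23 and Kifc5b), where 1.68% of all tested genes were, and none was lower, where 0.589% were. Several genes lay close to the fold threshold, with Kif20b just inside it at 1.52-fold and Kif15 just outside at 1.49-fold. The count at 24 h was 3 without replicate 1 at 0 h (Kif11, Kif14 and Kif20b were then below 1.5-fold), and 10 when either replicate 3 at 0 h or replicate 2 at 24 h was left out. In these 3 fits 182 of 11507, 270 of 11465 and 233 of 11463 tested genes were called in either direction. When the null hypothesis was a change of up to 1.5-fold (glmTreat), no kinesin passed at either time (1 mitotic gene at 12 h and 4 at 24 h at an unadjusted p under 0.05), beside 4 and 6 of all 11373 genes, so that these rises differed from 0 but were not shown to exceed 1.5-fold. Between 12 and 24 h, 12 of the 13 mitotic genes had a positive log2 fold change with a median of 0.14, beside 5789 of all 11373 tested genes with a median of 0.0023. Only 1 of the 13 passed, beside 1.97% of all tested genes higher and 3.06% lower. No kinesin was called by the 1.5-fold rule in this comparison, in which 0.202% of all tested genes were higher and 0.0879% lower. For 6 of the 13, all 24 h libraries lay above all 12 h libraries, where 11.4% of all tested genes did and 13.6% lay wholly below.

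**Figure D4:**
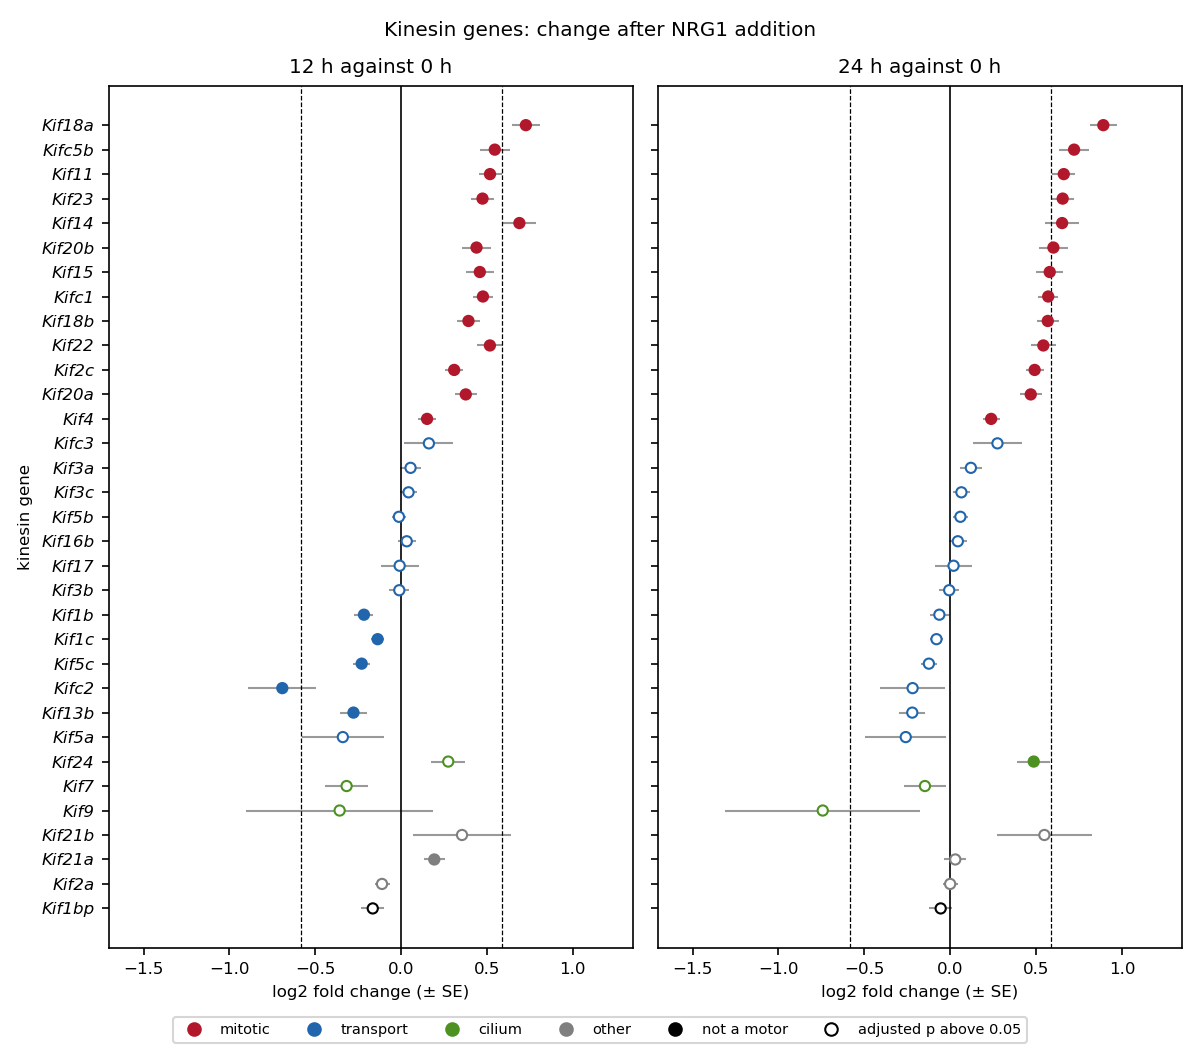
Points are log2 fold changes against 0 h and bars are ± SE from the edgeR fit over 9 libraries, with 12 h at the left and 24 h at the right. Filled points have an adjusted p of at most 0.05, open points do not, and dashed lines mark 1.5-fold in either direction. All 13 mitotic genes are filled and right of 0 in both panels, and no transport gene is filled at 24 h.

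Kif5b, the ubiquitous heavy chain of the conventional cargo motor kinesin-1, measured 164, 183 and 174 CPM at 0 h, 168, 171 and 178 CPM at 12 h and 179.9, 184 and 180.1 CPM at 24 h. Both later groups overlapped 0 h, although the 24 h libraries lay above those at 12 h. Its log2 fold change was -0.013 at 12 h (95% confidence interval -0.10 to 0.075, adjusted p = 0.86) and 0.06 at 24 h (-0.028 to 0.15, adjusted p = 0.365), intervals that lie well inside 1.5-fold. The log2 ratio of Kif11 to Kif5b was -2.19 ± 0.0837 at the start, -1.66 ± 0.0677 at 12 h and -1.59 ± 0.0561 at 24 h. The ratio was therefore higher by 0.54 and 0.61 than at 0 h, without overlap (exact permutation test, two-sided p = 0.1 for each, the smallest that 3 against 3 libraries allow). Kif11 alone already lay wholly above 0 h, and the genes were chosen with earlier results known, so this test gives no added support. Kif5c, a kinesin-1 heavy chain known mainly from neurons (chr2:49619298-49774778, + strand), measured 46.8, 49.95 and 46.7 CPM at 0 h, 40.1, 39.8 and 42.6 CPM at 12 h and 43.03, 43.2 and 45.5 CPM at 24 h. All 6 later libraries were below the 0 h libraries, with log2 fold changes of -0.23 ± 0.049 (SE, adjusted p = 0.0023) at 12 h and -0.12 ± 0.048 (SE, adjusted p = 0.0897) at 24 h, of which the first passed. Kif5a, the remaining heavy chain, ranged from 0.868 to 1.63 CPM, with log2 fold changes of -0.34 and -0.26 that did not pass (adjusted p = 0.33 and 0.514).

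Of the 5 transport genes that fell at 12 h, 3 were kinesin-3 carriers of vesicles and organelles. Kif1c (chr11:70700548-70731964, + strand), a vesicle carrier and the most abundant kinesin per length of exon, measured 210.5, 205 and 209 CPM at 0 h, 198, 189 and 180.3 CPM at 12 h and 195, 193 and 203 CPM at 24 h. Its libraries at 12 h lay below those at 0 h, and it changed by -0.14 ± 0.04 (SE, adjusted p = 0.0174) at 12 h and -0.08 ± 0.039 (SE, adjusted p = 0.188) at 24 h, of which only the first passed. Kif1b, a carrier of mitochondria and synaptic vesicle precursors (chr4:149176319-149307693, - strand), measured 82.9, 86.7 and 89.01 CPM at 0 h, 69.6, 72.1 and 81.2 CPM at 12 h and 77.5, 85.2 and 84.8 CPM at 24 h. The 12 h libraries were again below those at 0 h, while those at 24 h overlapped them, and the log2 fold changes were -0.22 ± 0.055 (SE, adjusted p = 0.00858) and -0.063 ± 0.055 (SE, adjusted p = 0.491). Kif13b, another vesicle carrier (chr14:64647265-64809617, + strand), measured 28.4, 28.6 and 27.3 CPM at 0 h, 23.2, 20.004 and 26.4 CPM at 12 h and 23.3, 24.5 and 24.6 CPM at 24 h. All its later libraries were below 0 h, with -0.28 ± 0.077 (SE, adjusted p = 0.0137) at 12 h and -0.22 ± 0.076 (SE, adjusted p = 0.0565) at 24 h, and its 12 h pass was lost without the low replicate 2 at 12 h (-0.19). The 24 h value lay close to the threshold and passed with DESeq2 (adjusted p = 0.0487), with scaling by total counts, without a filter, with 6 libraries, and without replicate 2 or replicate 3 at 12 h. The 12 h passes of Kif1b and Kif1c also depended on single libraries: Kif1b did not pass without replicate 1 at 12 h (-0.17), and Kif1c did not without the first (-0.13) or the third (-0.13) replicate at 0 h or the third at 12 h (-0.093). Kif16b, a carrier of early endosomes, differed little, with 0.033 and 0.045 (95% confidence intervals -0.078 to 0.14 and -0.066 to 0.16).

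Kifc2, a minus-end kinesin-14 known mainly from neurons (chr15:76659858-76668196, + strand), was the only kinesin called lower (adjusted p and 1.5-fold together), at 12 h, where 0.958% of all tested genes were. It measured 5.22, 5.10 and 4.12 CPM at 0 h, 2.91, 3.25 and 2.77 CPM at 12 h and 5.86, 3.56 and 3.13 CPM at 24 h. The 12 h libraries lay below all 0 h libraries, while at 24 h replicate 1 was the highest of all 9 libraries and the other two were low. The log2 fold change was -0.69 ± 0.20 (SE, adjusted p = 0.016) at 12 h and -0.22 ± 0.19 (SE, adjusted p = 0.48) at 24 h. The 12 h call was lost (adjusted p over 0.05) when the first or the second replicate at 0 h or the first at 12 h was left out, and without replicate 1 at 24 h the 24 h value passed at -0.52. Kifc3, a minus-end kinesin-14 of vesicles and cell junctions, had positive values that did not pass, 0.16 and 0.28 (adjusted p = 0.448 and 0.202), and 27.5% of its exonic bases overlap other genes on the other strand.

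The kinesin-2 subunits did not pass in any comparison. Kif3a and Kif3b, which pair as the motor of heterotrimeric kinesin-2, ranged from 30.1 to 36.6 and from 34.2 to 39.9 CPM over the 9 libraries. Their log2 fold changes at 24 h were 0.12 (95% confidence interval -0.012 to 0.25) and -0.0057 (-0.13 to 0.12). Kif3c ranged from 29.2 to 31.9 CPM, with 40.7% of its exonic bases in an overlap on the other strand, and Kif17 from 4.82 to 5.68 CPM. From 12 to 24 h all 13 tested transport genes had a positive log2 fold change, with a median of 0.066, but none passed with edgeR or DESeq2 (3 and 2 at an unadjusted p under 0.05). Of all 11373 tested genes, 5789 were positive, with a median of 0.0023. The 13 values come from the same libraries and are not independent of each other.

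Of the cilium kinesins, Kif24, a kinesin-13 of centrioles that restrains cilium formation (chr4:41390745-41464887, - strand), measured 5.79, 5.94 and 5.29 CPM at 0 h, 6.76, 6.56 and 7.28 CPM at 12 h and 7.93, 8.17 and 7.77 CPM at 24 h. All later libraries lay above 0 h and all 24 h libraries above 12 h, and the log2 fold change was 0.27 ± 0.10 (SE, adjusted p = 0.0519) at 12 h and 0.49 ± 0.10 (SE, adjusted p = 0.00203) at 24 h, so that it rose at 24 h. Its promoter window held a CHR and 4 CCAAT boxes, and both motifs were also present in the windows of Kif27 and Kif26b, which had too few counts to test. Kif7, a regulator of Hedgehog signaling at the ciliary tip (chr7:79698098-79715720, - strand), measured 5.57, 4.76 and 5.34 CPM at 0 h, 4.39, 4.08 and 4.05 CPM at 12 h and 5.24, 4.07 and 4.81 CPM at 24 h. All 12 h libraries were below 0 h and those at 24 h overlapped, with -0.32 ± 0.13 (SE, adjusted p = 0.0746) and -0.15 ± 0.12 (SE, adjusted p = 0.467), neither of which passed, and 20.3% of its exonic bases overlap Ticrr and a further gene on the other strand. Kif9, a motor of motile cilia and flagella, was close to the limit of detection at 0.390, 0.368 and 0.232 CPM at 0 h, 0.363, 0.322 and 0.0653 CPM at 12 h and 0.229, 0.299 and 0.0764 CPM at 24 h. Its values spread widely within each time point, and its log2 fold changes of -0.36 and -0.74 did not pass (adjusted p = 0.678 and 0.421).

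Among the other motors, Kif2a, a microtubule depolymerase of spindle poles and neurons (chr13:106958996-107022126, - strand), measured 45.8, 47.1 and 46.1 CPM at 0 h, 42.99, 42.7 and 43.002 CPM at 12 h and 47.7, 46.4 and 45.04 CPM at 24 h. The 12 h libraries lay below all others, but the log2 fold change of -0.11 ± 0.044 (SE, adjusted p = 0.0722) did not pass, and at 24 h it was -0.00014 (95% confidence interval -0.091 to 0.091). Unlike its kinesin-13 relative Kif2c, Kif2a passed in no comparison (the difference between the 2 genes was not tested), and 19.2% of its exonic bases overlap Dimt1 on the other strand. Kif21a, a kinesin-4 that regulates microtubule growth (chr15:90933276-91049948, - strand), measured 18.1, 17.7 and 18.5 CPM at 0 h, 20.4, 20.7 and 20.9 CPM at 12 h and 18.3, 17.4 and 19.5 CPM at 24 h. All 12 h libraries were higher than all others, and it rose by 0.19 ± 0.063 (SE, adjusted p = 0.0317) at 12 h and was at 0.03 ± 0.063 (SE, adjusted p = 0.804) at 24 h. The 12 h pass of Kif21a was lost without a filter on low counts and when any 1 of 5 of the 6 libraries compared was left out (replicates 1 and 2 at 0 h and all 3 at 12 h). Kif21b, its relative, measured 0.745, 0.579 and 0.784 CPM at 0 h, 0.838, 0.708 and 1.14 CPM at 12 h and 0.884, 0.987 and 1.17 CPM at 24 h. It was low throughout, and its log2 fold changes of 0.35 and 0.55 did not pass (adjusted p = 0.396 and 0.194). Kif1bp, the partner protein, measured 27.6, 26.9 and 24.1 CPM at 0 h, 22.99, 25.3 and 21.6 CPM at 12 h and 24.8, 25.6 and 25.1 CPM at 24 h. The groups overlapped, with -0.17 ± 0.068 (SE, adjusted p = 0.0855) and -0.055 ± 0.067 (SE, adjusted p = 0.636).

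The remaining 4 genes, Kif1a, Kif13a, Kif26b and Kif27, had at most 2 counts in any library and were not tested. Each gene had 1 or 2 counts in some libraries and 0 in the others. A count of 0 allows up to 3 counts, or 0.0764 to 0.106 CPM at the depth of these libraries (counting error only). These motors were therefore at the limit of detection at this depth. Kif1a carries synaptic vesicle precursors in neurons and Kif13a carries endosomes, and both belong to the transport class. Over the 3 time points jointly, 19 of the 33 tested genes differed (omnibus adjusted p of at most 0.05), where 27.4% of all tested genes did.

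Levels between genes were compared as CPM per kilobase of exon, the mean of 9 libraries. Kif1c stood highest at 27.2 (24.8 to 28.9 over the libraries) and Kif5b next at 22.03 (20.5 to 23.02), and these ranges did not overlap each other or that of any other kinesin. Next came Kif2c at 9.98 (7.94 to 11.8), Kif3a at 9.22 (8.39 to 10.2), Kif20a at 8.996 (6.66 to 10.5), Kifc1 at 8.37 (6.15 to 9.81) and Kif4 at 8.23 (7.22 to 9.12), which overlapped their neighbors in this order. The order among these 5 differed by time, since at 0 h Kif3a (8.85) stood above Kif2c (8.20), and Kif4 (7.503) above Kif20a (7.31) and Kifc1 (6.47). Kif14 and Kif18a, which had the highest log2 fold changes at 12 h, were the least abundant of the mitotic class at 1.45 and 1.40 CPM per kilobase. At the low end stood Kif5a at 0.194, Kif21b at 0.0715 and Kif9 at 0.0606. Overlapping genes, and exons that these cells may not use, affect such levels.

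**Figure D5:**
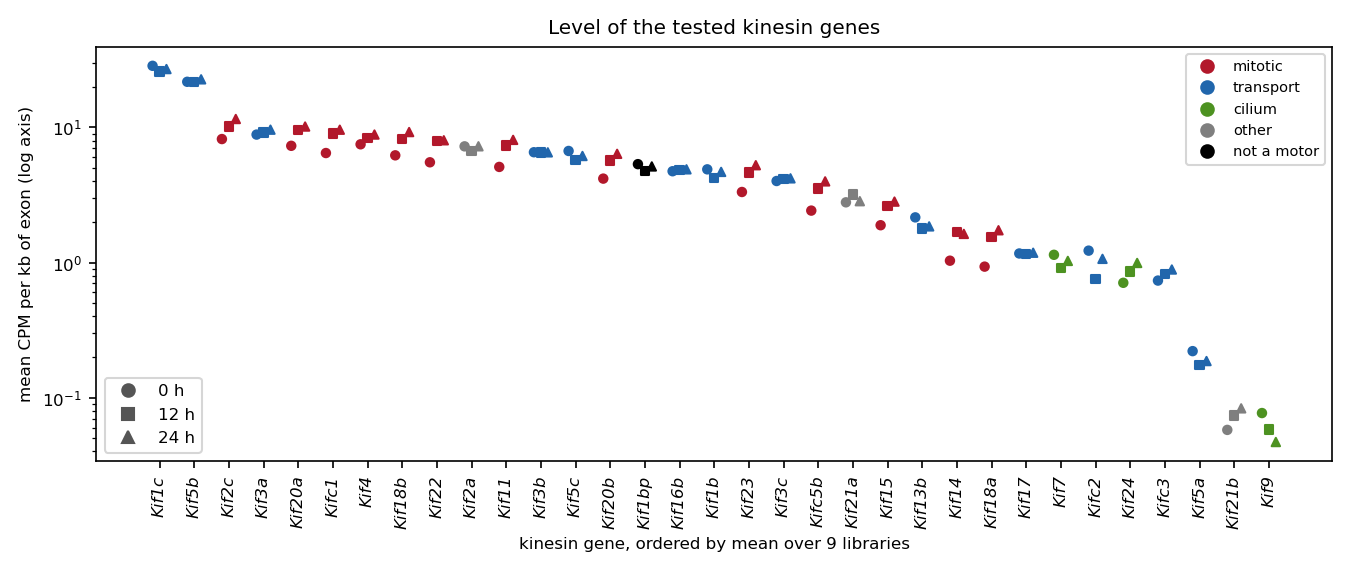
The y axis (log scale) gives mean CPM per kilobase of exon at 0 h (circles), 12 h (squares) and 24 h (triangles), and genes are ordered by their mean over 9 libraries. Kif1c and Kif5b, both transport motors, stand above all others at each time, and in the red mitotic genes the circle lies below the square and the triangle.

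The genes that work with these motors were followed from lists chosen by role. Of 14 spindle partners, 13 rose at 12 h and 13 at 24 h, with medians of 0.47 and 0.58, where 13.6% and 9.67% of all tested genes were higher. Among these 14 is Cenpe, itself a mitotic kinesin, which the naming rule did not match and which rose at both times (0.28 and 0.55). They included Incenp, a subunit of the chromosomal passenger complex (0.63 and 0.72), its kinase Aurkb (0.66 and 0.70) and Racgap1, the centralspindlin partner of Kif23 (0.43 and 0.51). Numa1, which gathers microtubules at spindle poles, was the member that did not pass (-0.12 and -0.085). All 7 proliferation markers rose at both times, beside the same shares of all genes, with medians of 0.52 and 0.57, among them Pcna, Ccna2 and Top2a, medians close to those of the mitotic kinesins. On the transport side, of 5 kinesin light chains and accessory subunits, the light chains Klc1 (-0.14 and -0.11) and Klc4 (-0.32 and -0.26) fell at 12 and 24 h, and 3 did not pass, where 11.9% and 7.76% of all tested genes were lower. Of 13 tested cargo adaptors, 3 fell at 12 h (Mapk8ip1, Kidins220 and Mapk8ip3) and none passed at 24 h, beside the same 11.9% and 7.76%. Of 13 tested subunits of cytoplasmic dynein and dynactin, which move cargo toward the opposite microtubule end, 2 rose and 3 fell at 12 h, and Dctn1 was the 1 that fell at 24 h, beside 13.6% of all tested genes higher and 11.9% lower at 12 h and 7.76% lower at 24 h.

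The libraries held 28467089 to 39239760 counts, of which the kinesins took 0.108% to 0.129%. Replicates of a time point correlated at 0.9945 to 0.996 (Pearson, across genes, which are not independent replicates), and no pair was within sampling noise. Replicate 3 at 12 h stood furthest from its replicates (chi-square per degree of freedom of 10.2 and 10.3), where the other pairs had 3.4 to 7.63. Hoxb13, a marker of prostate epithelium, was present at 81.3 to 106 CPM, whereas Cdh1 and Epcam, which mark epithelial cells in general, were near 0. Hoxb13 and the keratin Krt8 rose at 12 h (0.28 and 0.30) and Krt8 also at 24 h (0.34). Another keratin, Krt18, lay at 0.203 to 0.491 CPM and did not pass in any comparison. Of 10 markers of fibroblasts, immune, endothelial and neural cells in the table, 3 had enough counts to test and none passed in any comparison, and their summed level was 4.81 to 4.93 CPM at 0 h, 4.21 to 4.72 at 12 h and 4.41 to 4.93 at 24 h.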

How the data were processed

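TruSeq mRNA libraries of 9 samples were sequenced by the authors with paired-end reads, trimmed with Cutadapt 4.5, aligned to GRCm38.p6 with STAR 2.7.11a and counted per GENCODE vM24 gene with featureCounts 2.0.2. The deposited values are unnormalized counts. The strand setting and the treatment of reads that match more than 1 gene are not given in the sources used here.

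Counts were fitted for all 9 libraries together with edgeR 4.0.16 in R 4.3.3 (TMM scaling, filterByExpr, quasi-likelihood F-test), and p-values were adjusted by the Benjamini-Hochberg method over 11373 genes. A gene passed at an adjusted p of at most 0.05 and was called when the fold change was also at least 1.5. CPM were computed with TMM-scaled library sizes, log2 CPM with a prior count of 2, and SEs from the fold change and its F statistic. Exon lengths and overlaps came from GENCODE vM21, in which all 37 genes had the same coordinates. The promoter starts are those of RefSeq and can differ from these. In a simulation of 12 h against 0 h, 183 of 199 changed genes were recovered among 11304 tested, with 1 false call. The fold changes put in are not stated here, so these counts give no recovery rate for the kinesin genes.

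The genes, role classes and lists were chosen with earlier results of these data known. Per-library values are given for genes called in any comparison, for up to 4 genes per class with the highest mean CPM and for up to 3 per class with the lowest omnibus p. Partner and marker genes were named from the 3 lowest omnibus p per list, though not all of these are named. Exceptions were Numa1, chosen after its value was seen, and Cenpe, named because it is itself a kinesin. Cdh1 and Epcam, which had too few counts to test, were also named outside this rule. Alternatives were scaling by size factors or total counts, DESeq2 1.42.0, no filter, glmTreat, fits of 6 libraries, a replicate block and leaving out each library.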

Additional observations from a re-analysis of the deposited data

How the results depend on the processing

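With each library left out in turn, the mitotic medians against 0 h ranged from 0.42 to 0.51 (12 h) and from 0.52 to 0.64 (24 h). With glmTreat 0 kinesins were called at 12 h and 0 at 24 h, beside 4 and 6 of all 11373 genes. With each library left out in turn, 2 to 4 kinesins were called at 12 h and 3 to 10 at 24 h, and 0 to 2 passed between 12 and 24 h. That last count was 4 without a filter (Kif2c, Kif23, Kif1b and Kifc2) and 0 with only the 6 libraries compared. The transport median ranged from -0.072 to 0.033 at 12 h and from -0.056 to 0.049 at 24 h with a library left out. The cause of these shifts was not tested.

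Values of named genes changed sign in 20 fits, all of values near 0 except those of Kif9 (-0.36 at 12 h against 0 h and -0.38 at 24 h against 12 h). Kif2a at 24 h against 0 h was 0.0024 with DESeq2 size factors, 0.0025 with total counts, 0.0021 with DESeq2, 0.0026 without a filter, 0.0046 with 6 libraries, and -0.019 to 0.024 with a library left out. Other changes of sign came with a library left out. For 12 h against 0 h the values then ranged from -0.75 to 0.075 for Kif9 and from -0.053 to 0.033 for Kif5b, and for 24 h against 0 h from -0.012 to 0.073 for Kif21a. For 24 h against 12 h they ranged from -0.81 to 0.061 for Kif9, from -0.10 to 0.043 for Kif14 and from -0.033 to 0.15 for Kif13b. None of these had passed.

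With the replicate number as a block, 3 kinesins were called at 12 h, 6 at 24 h and 0 between 12 and 24 h, as without it, and the block changed no other call. Of all 11373 tested genes, 268, 259 and 33 were called with the block. Same-numbered libraries correlated at -0.0744 to 0.131 in their deviations from the group means, so the numbers were not taken as pairs. Depth limits the statements on Kif9, Kif5a and Kif21b, and with 3 libraries per time an exact test cannot go below p = 0.1.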
